A study of Mus musculus with 9 samples.

Results

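Lipid-associated macrophages are macrophages that take up lipid and dying cells, and they are marked by a shared group of transcripts. The genes described here are 8 of that group, Gpnmb, Fabp5, Trem2, Spp1, Cd9, Lgals3, Syngr1 and Anpep, out of 45777 genes in the tables. They were selected on their own TPM in these samples, mainly on the difference between the group given MSC-derived vesicles and the PBS group, together with what is known of lipid-associated macrophages. Their values in that contrast are therefore given as a description without a test. The same holds for the contrast with the vesicles from HEK cells, which uses the same MSC-EV samples. All 8 genes passed the filter on low values, at least 1 TPM (transcripts per 1000000 transcripts) in at least 3 samples, which kept 13820 genes.

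The cells were CD11b+ cells, a gate that takes monocytes, macrophages and neutrophils, isolated from mouse livers 48 h after acetaminophen (APAP), a drug whose overdose kills hepatocytes. APAP was given intraperitoneally in all 3 groups, so no uninjured liver is among the samples described. The PBS group received PBS, the HEK-EV group extracellular vesicles from HEK cells (a human line of embryonic kidney origin), and the MSC-EV group vesicles from MSC, an abbreviation commonly used for mesenchymal stem or stromal cells. Both vesicle preparations are labelled SIRP-EV and were injected intravenously 8 h after APAP, and the labels do not spell out SIRP. Each group had 3 samples of bulk RNA sequencing. Strain, genotype, age and sex of the mice are not given in the sources used here, nor is the species of the MSC. Nothing states that each sample came from a separate animal. The p-values compare group differences with the spread between these samples, which may be technical, and they may then be too small for a statement about animals. No vesicle without SIRP was among the groups.

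TREM2 is a surface receptor of myeloid cells that binds lipids, lipoproteins and debris of dying cells and signals through the adaptor encoded by Tyrobp. Macrophages that have engulfed such cargo raise lysosomal, lipid-handling and secreted proteins, and TREM2 is needed for much of this state in obese fat tissue. In the liver after APAP, macrophages clear dead hepatocytes while recruited Ly6C-high monocytes mature into macrophages.

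Promoters of 4 of the 8 genes are printed first, from RefSeq's annotation of GRCm38.p6, the patch release of mm10. Promoters of 300 bases, from 250 before to 50 after a transcription start, were available for 7 of the 8 genes, in 8 windows since Spp1 has 2 starts. Those of Gpnmb, Trem2 and Spp1 are shown because a short motif of a macrophage transcription factor was matched in them, and that of Syngr1 as a GC-rich promoter of a gene with nearly as large a difference as Gpnmb. Each line gives 200 bases, from 170 before the start to its first 30, on the plus strand. They lie at chr6:49036348-49036547, chr17:48346231-48346430, chr5:104434941-104435140 and chr15:80091164-80091363, and capitals mark the motif matches.
Gpnmb: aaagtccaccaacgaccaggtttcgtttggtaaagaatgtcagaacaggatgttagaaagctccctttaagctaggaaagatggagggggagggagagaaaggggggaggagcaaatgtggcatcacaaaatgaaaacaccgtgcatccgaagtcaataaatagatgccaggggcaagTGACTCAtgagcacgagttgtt
Trem2: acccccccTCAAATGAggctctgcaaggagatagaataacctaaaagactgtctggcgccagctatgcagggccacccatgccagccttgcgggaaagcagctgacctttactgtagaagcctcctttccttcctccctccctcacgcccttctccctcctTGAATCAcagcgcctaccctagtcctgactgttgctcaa
Spp1: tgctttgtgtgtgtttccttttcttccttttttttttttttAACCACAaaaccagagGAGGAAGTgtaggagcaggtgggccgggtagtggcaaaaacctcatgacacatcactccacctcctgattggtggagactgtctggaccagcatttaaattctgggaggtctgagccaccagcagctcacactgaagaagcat
Syngr1: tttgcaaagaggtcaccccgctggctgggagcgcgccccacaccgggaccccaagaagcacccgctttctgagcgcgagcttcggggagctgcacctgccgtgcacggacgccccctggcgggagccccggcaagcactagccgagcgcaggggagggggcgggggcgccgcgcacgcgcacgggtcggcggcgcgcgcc

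Short motifs were searched on both strands of the whole promoters. The AP-1 motif TGANTCA was matched in Gpnmb (TGACTCA, beginning at base 9 after the start) and in Trem2 (TGAATCA, beginning 9 bases before it), 2 of the 8 windows, and in 7.81% of the 32851 promoters of the table. The pattern TCANNTGA, a loose form of the M-box of the MITF and TFE factors, was matched in Trem2 (TCAAATGA, 162 bases before the start) and in Lgals3 (TCAGGTGA, 224 bases before it), against 8.39% of all promoters. Its letters can hold the E-box CACGTG, which was in none of the 8 windows and in 7.15% of all. The ETS motif GAGGAAGT, of the family of PU.1, was matched in Spp1 alone (113 bases before the start), against 3.20%. The RUNX motif AACCACA was matched in Spp1 (129 bases before the start) and Gpnmb (176 bases before it, outside the printed window), against 5.27%. No motif was shared by more than 2 of the 7 genes, and a match is only a description of the letters. Base composition differed among the genes: the GC content was 45.3% and 36.7% in the 2 windows of Spp1, 47.7% in Gpnmb and 56% in Trem2, but 61.3% in Cd9, 67% in Lgals3 and 72.3% in both Syngr1 and Anpep, against a median of 52.7% over all promoters.

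Values below are in the order PBS, HEK-EV, MSC-EV unless said otherwise, as mean ± SD with n = 3. The tables give no reads per gene, so precision from counting cannot be stated, and depth can only be ranked, by the quotient of coverage and FPKM, which grows with sequencing. That quotient was lowest in PBS replicate 1 at 5.28 and lay between 6.06 and 6.47 in the other PBS and the HEK-EV samples. All MSC-EV samples were above these, at 6.58 to 6.84, so the quotient separates the group where the 8 genes were high. With it as a covariate the median difference of the 8 genes from PBS went from 1.25 to 2.0. Transcripts of pancreatic acinar cells (10 genes of the list of 11) set 4 samples apart: HEK-EV replicates 1 and 2 held 19.5 and 785 TPM, MSC-EV replicates 1 and 3 held 90.5 and 2240 TPM, and the others held at most 0.305 TPM. The sum leaves out Cela1, an elastase gene that was at 11.2 to 14.0 TPM in those other samples. The genes that define the gate and the macrophage label were present in every sample. Itgam, the gene of CD11b, was at 330 ± 44.3, 372 ± 54.1 and 229 ± 29.6 TPM, with all MSC-EV samples below all samples of the other groups. It fell against HEK-EV (-0.70, SE 0.134, adjusted p = 0.0257, limma) and was at -0.53 against PBS (adjusted p = 0.0553, limma), so the gene of the gate was lower in the group where the 8 genes were high, and its part in their differences was not tested. Adgre1, the F4/80 antigen of macrophages, was at 407 ± 48.4, 461 ± 16.3 and 432 ± 40.7 TPM. Csf1r, the receptor that macrophages need for survival, averaged 1064 ± 106, 1125 ± 53.7 and 1021 ± 59.3 TPM. In bulk samples a change in the number of cells of a type and a change in RNA per cell cannot be told apart.

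Of the surface proteins, Gpnmb stood out. It encodes a transmembrane glycoprotein of lysosomes and the cell surface (gene ID 93695, chr6:49036518-49058182, plus strand). Its level was 705, 323 and 252 TPM in PBS replicates 1, 2 and 3, 491, 461 and 351 TPM in the HEK-EV samples and 1489, 1538 and 1056 TPM in the MSC-EV samples. All MSC-EV samples lay above all others, and the highest of the other 6 was PBS replicate 1. The MSC-EV mean was 3.19-fold that of PBS, a difference of 1.80 in log2(TPM + 1) (SE 0.331, limma), and the difference from HEK-EV was 1.64.

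Trem2 (gene ID 83433, chr17:48346401-48352276, plus strand) had the narrowest spread of the 8 in the MSC-EV group as a ratio, its highest sample being 1.15-fold its lowest. Its level was 417, 307 and 308 TPM in the PBS samples, 335, 364 and 308 TPM in the HEK-EV samples and 528, 505 and 461 TPM in the MSC-EV samples. The groups given PBS and HEK-EV overlapped, and every MSC-EV sample was above both. The difference was much smaller than that of Gpnmb, 0.54 from PBS (SE 0.120, 1.45-fold in mean TPM) and 0.57 from HEK-EV. In PBS replicates 2 and 3 its level was close to that of Gpnmb.

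Cd9 and Anpep encode the other surface proteins. Cd9, a tetraspanin that organises membrane partners and is also a common protein of extracellular vesicles (gene ID 12527, chr6:125460266-125494760, minus strand), was at 235, 183 and 236 TPM in the PBS samples, 216, 204 and 191 TPM in the HEK-EV samples and 225, 289 and 227 TPM in the MSC-EV samples. The MSC-EV and PBS samples overlapped: PBS replicates 1 and 3 lay above MSC-EV replicates 1 and 3, and the difference from PBS was 0.18 (SE 0.123). All MSC-EV samples were above the HEK-EV samples, by a difference of 0.27 (SE 0.123), which was 0.15 without MSC-EV replicate 2. Anpep, the aminopeptidase N or CD13 of myeloid cells (gene ID 16790, chr7:79821803-79848210, minus strand), was at 32.3, 14.6 and 13.4 TPM in the PBS samples, 20.3, 22.7 and 20.4 TPM in the HEK-EV samples and 70.5, 59.1 and 46.0 TPM in the MSC-EV samples. Neither other group overlapped with MSC-EV, and the difference was 1.58 from PBS (SE 0.282, 2.91-fold) and 1.41 from HEK-EV.

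The secreted members were the most abundant of the 8. Spp1 encodes osteopontin, a secreted ligand of CD44 and integrins (gene ID 20750, chr5:104435111-104441053, plus strand). It was at 1702, 732 and 981 TPM in the PBS samples, 884, 963 and 1172 TPM in the HEK-EV samples and 1970, 2336 and 1754 TPM in the MSC-EV samples. PBS replicate 1 came close to the MSC-EV group, whose lowest sample was 1.03-fold of it. The difference was 0.91 from PBS (SE 0.263) and 1.0 from HEK-EV. Lgals3 encodes galectin-3, a sugar-binding protein found inside and outside macrophages (gene ID 16854, chr14:47373860-47386167, plus strand). It was at 1924, 1378 and 1436 TPM in the PBS samples, 1429, 1534 and 1471 TPM in the HEK-EV samples and 2431, 2594 and 2042 TPM in the MSC-EV samples. Here too the MSC-EV samples lay above all others, with PBS replicate 1 just under them, and the difference was 0.59 from PBS (SE 0.131) and 0.67 from HEK-EV.

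Fabp5, a carrier of fatty acids in the cytoplasm (gene ID 16592, chr3:10012585-10016610, plus strand), had the largest difference of the 8. It was at 394, 146 and 167 TPM in the PBS samples, 243, 228 and 232 TPM in the HEK-EV samples and 1121, 1039 and 608 TPM in the MSC-EV samples. MSC-EV replicate 3 was well under the other MSC-EV samples but above all 6 samples of the other groups. The difference was 2.06 from PBS (SE 0.347, 3.91-fold) and 1.92 from HEK-EV. Fabp5 shares 98.3% of 409 bases with the processed pseudogene Gm6166, which reached 43.9 TPM, and 97.3% of 408 bases with Gm14328, which reached 2.15 TPM, so reads may have been split between them. Spp1 likewise shares 181 identical bases with the annotated gene Gm42793.

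Syngr1 encodes synaptogyrin 1, a membrane protein of transport vesicles known mostly from neurons (gene ID 20972, chr15:80091334-80119501, plus strand). It was at 44.4, 13.7 and 20.7 TPM in the PBS samples, 21.7, 24.3 and 22.1 TPM in the HEK-EV samples and 96.6, 87.4 and 66.1 TPM in the MSC-EV samples. The HEK-EV samples were nearly level, the PBS samples spread 3.23-fold, and the MSC-EV samples lay above both. The difference was 1.77 from PBS (SE 0.333, 3.17-fold) and 1.81 from HEK-EV. Syngr1 overlaps the antisense gene Gm31134, at up to 0.911 TPM, and Cd9 overlaps the antisense genes Gm26728 and Gm28809, at up to 0.192 and 1.54 TPM. The sources used here do not say if strand was used in assigning reads.

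**Figure D1:**
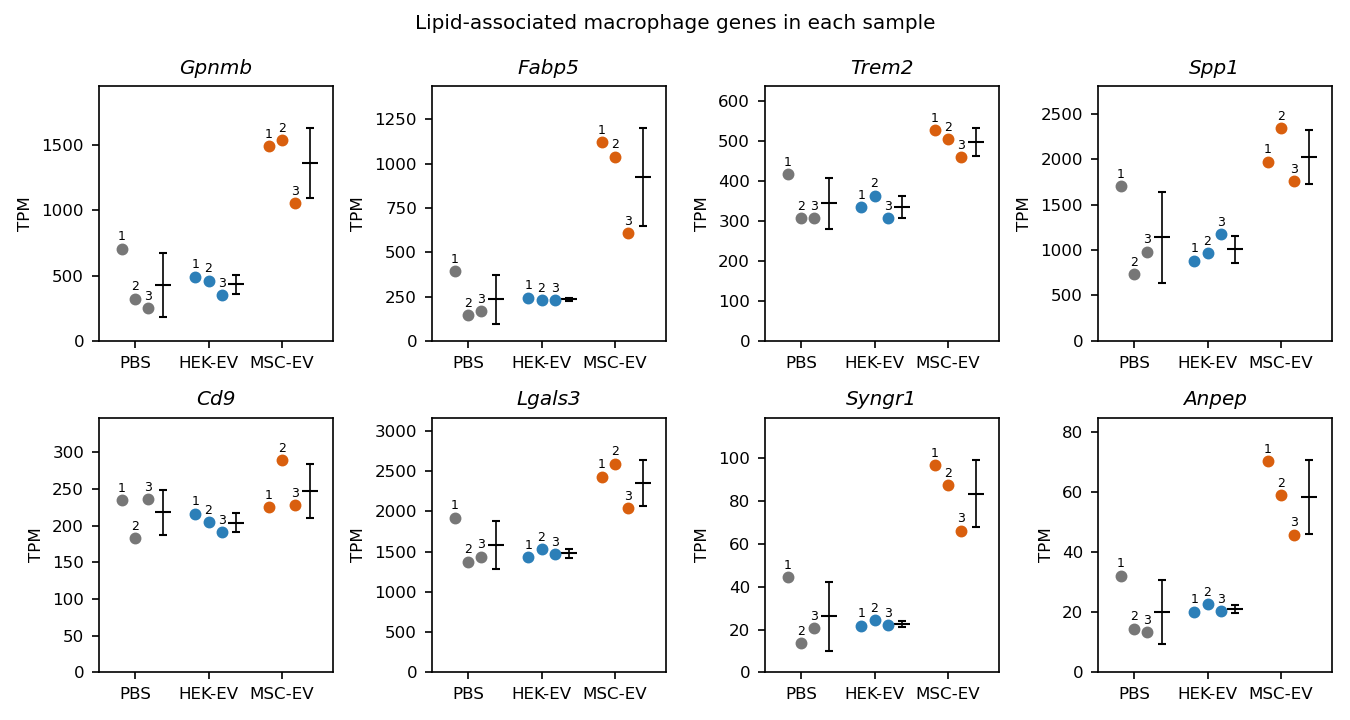
Level of each of the 8 genes in TPM (vertical axis, from 0) in the 3 samples of each group (points, numbered by replicate), with the group mean and SD as a bar to the right of each group. All MSC-EV samples lie above the other 6 for every gene except Cd9, and PBS replicate 1 is the highest PBS sample for every gene except Cd9.

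Read across the 8 genes, every MSC-EV sample was above every PBS sample for 7 genes, where 11.2% of all 13820 genes tested had that order, and above every HEK-EV sample for all 8, where 12.6% of all genes had it. The genes were chosen for the first of these, so nothing further is read from it. The median of the 8 differences was 1.25 from PBS and 1.21 from HEK-EV, beside medians of 0.01 and -0.02 over all genes tested. The differences fell into 2 sizes: Fabp5, Gpnmb, Syngr1 and Anpep lay between 1.58 and 2.06 from PBS, while Spp1, Lgals3, Trem2 and Cd9 lay between 0.18 and 0.91. The first 4 include the genes of lowest level in PBS, Syngr1 and Anpep, but also Gpnmb, which was the third most abundant there.

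The order of levels, which TPM allows since it is per length, changed with the group. In PBS it was Lgals3 (1579 ± 300 TPM), Spp1 (1138 ± 504), Gpnmb (427 ± 244), Trem2 (344 ± 63.2), Fabp5 (236 ± 138), Cd9 (218 ± 30.2), Syngr1 (26.3 ± 16.1) and Anpep (20.1 ± 10.5). The neighbours Lgals3 and Spp1 overlapped between samples, as did Gpnmb with Trem2, Trem2 with Fabp5, Fabp5 with Cd9 and Syngr1 with Anpep. The HEK-EV group kept the order of PBS, at 1478 ± 52.8, 1006 ± 149, 434 ± 73.7, 335 ± 27.9, 234 ± 7.94, 204 ± 12.8, 22.7 ± 1.39 and 21.1 ± 1.35 TPM, with overlap only between Gpnmb and Trem2 and between Syngr1 and Anpep. In the MSC-EV group Fabp5 (922 ± 276 TPM) stood above Trem2 (498 ± 34.2) without overlap, and next to Gpnmb (1361 ± 265) with overlap. The others were Lgals3 (2356 ± 284), Spp1 (2020 ± 294), Cd9 (247 ± 36.6), Syngr1 (83.4 ± 15.6) and Anpep (58.5 ± 12.3).

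Most of the 8 genes had the same sample highest in the PBS group and the same sample lowest in the MSC-EV group. PBS replicate 1 was the highest PBS sample for 7 genes and was above every HEK-EV sample for all 8, and MSC-EV replicate 3 was the lowest MSC-EV sample for 7. PBS replicate 1 exceeded the mean of the other PBS samples by a median of 1.08 (log2) over the 8 genes, beside 0.10 over all genes tested. MSC-EV replicate 3 was below the mean of the other MSC-EV samples by a median difference of -0.38, beside 0.06 over all genes. The highest PBS sample was 1.29-fold (Cd9) to 3.23-fold (Syngr1) the lowest, against 1.07-fold to 1.40-fold in the HEK-EV group and 1.15-fold to 1.84-fold in the MSC-EV group. The same PBS sample had the lowest quotient of coverage and FPKM and the lowest summed level of 7 Ly6C-high monocyte markers in its group, 5634 TPM against 11078 and 11569 TPM, while MSC-EV replicate 3 had the most acinar transcripts. The part of these in the order was not tested. Without PBS replicate 1 the differences of MSC-EV from PBS were 2.23 for Gpnmb, 2.51 for Fabp5, 0.69 for Trem2, 1.24 for Spp1, 0.24 for Cd9, 0.74 for Lgals3, 2.22 for Syngr1 and 1.97 for Anpep.

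The vesicles from HEK cells showed no difference from PBS that passed the test. In HEK-EV against PBS, a contrast that shares the PBS samples with the one that chose the genes, the difference was 0.16 for Gpnmb (95% interval -0.588 to 0.899), 0.14 for Fabp5 (-0.641 to 0.920), -0.02 for Trem2 (-0.294 to 0.245) and -0.10 for Spp1 (-0.688 to 0.494). For Cd9 it was -0.09 (-0.364 to 0.187), for Lgals3 -0.08 (-0.375 to 0.215), for Syngr1 -0.04 (-0.792 to 0.708) and for Anpep 0.17 (-0.462 to 0.809). The adjusted p was 0.999 for each (limma, Benjamini-Hochberg over all genes tested), and for Gpnmb, Fabp5, Syngr1 and Anpep the upper bounds lay between 0.708 and 0.920. All 3 HEK-EV samples lay between the lowest and the highest PBS sample for all 8 genes, a range that PBS replicate 1 set at its upper end for 7 of them. None of the 8 had all HEK-EV samples above all PBS samples, beside 5.51% of all genes. Across all 13820 genes limma called 0 (0%) in this contrast, with 495 at an unadjusted p under 0.05. Without PBS replicate 1 the difference was above 0 for 7 of the 8 genes, up to 0.59 for Gpnmb, with no gene called.

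Likeness of profile was measured to Gpnmb and to Trem2, as the mean absolute difference between 2 profiles of log2(TPM + 1), each centred on its own mean over the 9 samples, among 9616 genes with a mean of at least 5 TPM. Closest to Gpnmb among the 8 were Anpep at 0.145, Fabp5 at 0.207 and Syngr1 at 0.214, and Cd9 was farthest at 0.693, beside a median of 0.810 over all genes searched. Closest among the other genes were Atp6v0d2, a subunit of the proton pump of lysosomes, at 0.202, Hvcn1, a proton channel, at 0.226, Blnk, an adaptor of immune receptors, at 0.232, Bhlhe41, a transcriptional repressor, at 0.233 and Gas6, a bridge between dying cells and receptors such as MERTK, at 0.303. Atp6v0d2 averaged 5.19 ± 3.81, 5.56 ± 1.45 and 27.2 ± 9.92 TPM for the groups, and Gas6 46.7 ± 18.8, 53.1 ± 2.82 and 105 ± 9.45 TPM. In both, PBS replicate 1 was again the highest PBS sample and MSC-EV replicate 3 the lowest MSC-EV sample.

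Trem2 was matched more closely by its nearest genes, at a smaller amplitude. Lgals3 was at 0.0640 from it, Cd9 at 0.162 and Spp1 at 0.280, beside a median of 0.279 over all genes searched. The other members were farther from Trem2 than that median: Anpep at 0.431, Gpnmb at 0.538, Syngr1 at 0.594 and Fabp5 at 0.646. The closest other genes were Dpp7, a dipeptidase, at 0.0450, H2-DMb2, a chain of the peptide loader of MHC class II, at 0.0477, Adi1, an enzyme of methionine salvage, at 0.0491, Cd200r4, of the CD200 receptor family, at 0.0497 and Sptssa, a subunit of the first enzyme of sphingolipid synthesis, at 0.0557. Dpp7 averaged 63.8 ± 11.6, 62.3 ± 2.61 and 91.9 ± 7.80 TPM and H2-DMb2 24.9 ± 4.22, 26.6 ± 4.21 and 37.7 ± 2.87 TPM. These genes were picked for their likeness over the same 9 samples, so it is a description.

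**Figure D2:**
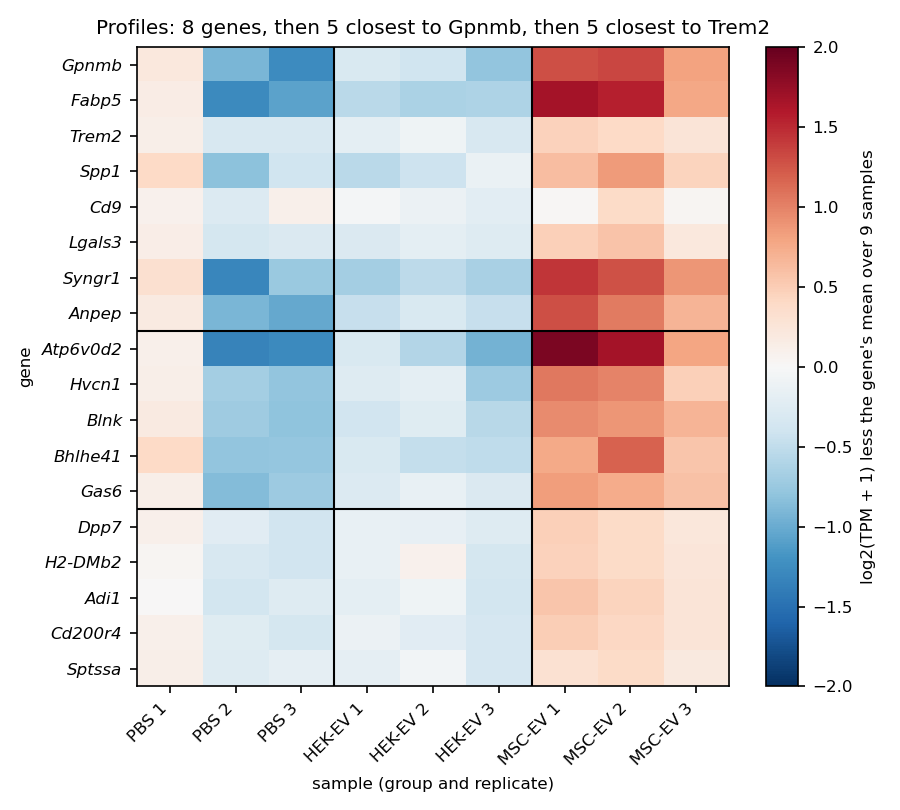
Profiles of the 8 genes, then of the 5 genes closest to Gpnmb and the 5 closest to Trem2 (rows), over the 9 samples (columns, by group and replicate), with colour giving log2(TPM + 1) less the gene's mean over the 9 samples. PBS replicate 1 is above the other PBS samples in every row except Cd9, and the MSC-EV samples are the highest group, with Cd9 the weakest row.

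Among 26 other genes of lipid-associated macrophages, all tested, every gene that passed was higher in the MSC-EV group. In MSC-EV against PBS 9 of the 26 rose and 0 fell, where 1.86% of all genes were called higher and 3.25% lower (limma, adjusted p under 0.05). Their median difference was 0.53 beside 0.01 over all genes, and 23 of the 26 were above 0. In MSC-EV against HEK-EV 10 rose and 0 fell, where 1.51% of all genes were called higher and 4.4% lower, with a median of 0.46. In HEK-EV against PBS none passed, with a median of 0.06. Earlier results on many of these genes were known when the list was written, so the counts are not independent evidence of a direction.

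Apoe, the lipoprotein that carries cholesterol out of macrophages and is also made by hepatocytes, had the highest level of those that rose: it averaged 5317 ± 1117, 6943 ± 702 and 12101 ± 738 TPM, a difference of 1.21 from PBS (SE 0.149, adjusted p = 0.0113, limma) and 0.80 from HEK-EV (adjusted p = 0.0241). Atp6v0d2 rose most, by 2.28 from PBS (SE 0.401, adjusted p = 0.0238, limma). The lysosomal proteases Ctsb and Ctsd rose from 2819 ± 435 to 4264 ± 329 TPM (0.60, SE 0.110) and from 3588 ± 739 to 5980 ± 639 TPM (0.75, SE 0.139). Cd63, a tetraspanin of lysosomes and vesicles, rose from 151 ± 49.2 to 334 ± 74.0 TPM (1.16, SE 0.216). The fatty-acid carrier Fabp4 rose by 0.89, the protease inhibitor Timp2 by 0.88 and the growth factor Igf1 by 0.97, and these were called against both other groups. Lpl, which frees fatty acids from lipoproteins, rose against PBS (0.52, adjusted p = 0.0463) and was at 0.36 against HEK-EV (adjusted p = 0.117, limma), while Cd68 and Lgals1 were called against HEK-EV (0.33 and 0.66) and sat at adjusted p = 0.0513 and 0.0507 against PBS. Ftl1, the ferritin light chain, and Plin2, which coats lipid droplets, were the most abundant that did not pass, at 0.41 (adjusted p = 0.0741) and 0.37 (adjusted p = 0.268, limma) against PBS. Mmp12, a metalloproteinase of macrophages that cleaves elastin, lay in the other direction, at 73.2 ± 5.98, 62.0 ± 13.6 and 47.3 ± 9.63 TPM, with all MSC-EV samples below all PBS samples. It did not pass against PBS (-0.64, SE 0.174, adjusted p = 0.0676, limma), and it was called lower with the replicate block and without HEK-EV replicate 3.

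The count of these calls hung on single samples. Against PBS, 9 calls became 18 without PBS replicate 1, 1 without PBS replicate 2, 0 without PBS replicate 3, 5 without HEK-EV replicate 2, 0 without MSC-EV replicate 1, 1 without MSC-EV replicate 2 and 0 without the 2 samples richest in acinar transcripts, HEK-EV replicate 2 and MSC-EV replicate 3, while the median difference stayed between 0.40 and 0.70 in those fits. Against HEK-EV, 10 calls became 17 without PBS replicate 1 and 0 without any 1 of the HEK-EV samples, MSC-EV replicate 1 or MSC-EV replicate 2. The same holds for the 706 genes called against PBS in all, which became 1881 without PBS replicate 1, 5 without PBS replicate 2, 7 without PBS replicate 3, 303 without HEK-EV replicate 2, 23 without MSC-EV replicate 1, 54 without MSC-EV replicate 2 and 461 without MSC-EV replicate 3. Of the 706, 36.4% were higher, a share that was 58.7% with FPKM in place of TPM, 47.2% with median-of-ratios scaling and 44.5% with quantile normalization. Of the 817 called against HEK-EV 25.6% were higher, against 54.8% with FPKM, 46.3% with median-of-ratios scaling and 45.5% with quantile normalization, and the 817 became 1384 without PBS replicate 1, 31 without HEK-EV replicate 3, 1 without HEK-EV replicate 1 and 0 when HEK-EV replicate 2, MSC-EV replicate 1 or MSC-EV replicate 2 was left out, which bounds the calls of every list in that contrast.

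In the signalling chain downstream of TREM2, Plcg2 and Ptpn6 fell. Of 12 genes 0 rose and 2 fell against PBS, where 1.86% of all genes were called higher and 3.25% lower. The median was -0.17 beside 0.01 over all genes, and 11 of the 12 were below 0. Plcg2, the phospholipase that TREM2 activates, fell from 195 ± 15.3 to 140 ± 12.2 TPM (-0.48, SE 0.0893, adjusted p = 0.0263, limma), and Ptpn6, the inhibitory phosphatase SHP-1, fell from 724 ± 79.4 to 549 ± 15.1 TPM (-0.39, SE 0.0895, adjusted p = 0.0405, limma). Against HEK-EV, where 4.4% of all genes were called lower, 5 fell, these and Inpp5d, the phosphatase SHIP1, Card9, an adaptor, and Pik3cd, a lipid kinase, at -0.24, -0.37 and -0.28. The adaptor gene Tyrobp was at 2828 ± 188, 2719 ± 104 and 2512 ± 139 TPM and did not pass (adjusted p = 0.211 against PBS, limma). Grb2, a general adaptor, was at 252 ± 13.3, 256 ± 10.4 and 257 ± 1.45 TPM. With FPKM in place of TPM, with no filter, with only the 6 samples compared, with the replicate block or with a term for acinar transcripts, no gene of this list was called against PBS, and Ptpn6 was not called with median-of-ratios scaling or quantile normalization. Many of the list are genes of all leukocytes, as is Ptprc, which encodes CD45 and was at 585 ± 65.9, 614 ± 49.5 and 424 ± 4.85 TPM. Ptprc fell against PBS (-0.46, SE 0.0873, adjusted p = 0.0271, limma) and against HEK-EV (-0.53, adjusted p = 0.0207, limma), and its part in the result was not tested. Its call against PBS was lost with FPKM, no filter, only the 6 samples compared or a term for acinar transcripts. It was also lost without PBS replicate 2, PBS replicate 3 or any single MSC-EV sample. No gene of the signalling list was called against PBS without PBS replicate 2, PBS replicate 3, MSC-EV replicate 1 or MSC-EV replicate 2, and 4 fell without PBS replicate 1. Without HEK-EV replicate 2, HEK-EV replicate 3 or MSC-EV replicate 3, Plcg2 alone was called.

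Receptors of the secreted members, ligands of TREM2 and the proteases that shed its outer part were a list of 13. Clu, the lipoprotein clusterin and a ligand of TREM2, rose from 46.8 ± 5.66 in PBS and 60.9 ± 10.5 in HEK-EV to 136 ± 20.3 TPM, a difference of 1.51 from PBS (SE 0.149, adjusted p = 0.00654, limma) and 1.14 from HEK-EV. Cd44, a receptor of osteopontin, fell from 371 ± 22.4 to 294 ± 18.0 TPM (-0.34, SE 0.0656, adjusted p = 0.0286, limma). The integrin chain Itgb3 fell by 0.59 from 3.61 ± 0.183 TPM, a low level. In all, 1 rose and 2 fell against PBS, where 1.86% of all genes were called higher and 3.25% lower. Against HEK-EV 1 rose and 4 fell, with Itgb1 and Itga5 added at -0.31 and -0.44, where 1.51% of all genes were called higher and 4.4% lower. Lgals3bp, which binds galectin-3, and Itgb5 were the most abundant that did not pass, at 713 ± 85.0 and 653 ± 58.0 TPM (Lgals3bp) and 272 ± 25.1 and 279 ± 21.8 TPM (Itgb5) in PBS and MSC-EV. The sheddases Adam10 and Adam17 are in the list and did not pass, at -0.03 and -0.08. Against PBS, no gene fell with no filter, with only the 6 samples compared, with a term for acinar transcripts, or without PBS replicate 2, PBS replicate 3, MSC-EV replicate 1 or MSC-EV replicate 2, and none rose without PBS replicate 2. With FPKM Itgb3 alone was called lower against PBS, and with depth as a covariate Cd44 alone.

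Among relatives of the 8 genes by protein family, 2 TREM receptors fell. Of 30 relatives 23 were tested, and 0 rose and 2 fell against PBS, where 1.86% of all genes were called higher and 3.25% lower. Trem3 went from 76.8 ± 25.3 to 37.9 ± 3.58 TPM (-0.95, SE 0.211, adjusted p = 0.0386, limma) and Treml4 from 244 ± 29.4 to 134 ± 24.5 TPM (-0.87, SE 0.134, adjusted p = 0.0187, limma). Both fell against HEK-EV as well, by 1.03 and 0.96, together with the tetraspanin Cd82, which fell by 0.27. In that contrast 4.4% of all genes were called lower. The most abundant relatives that did not pass were the tetraspanin Cd53, at 537 ± 49.5 TPM in PBS and 474 ± 23.7 TPM in MSC-EV, and the galectin Lgals9, at 441 ± 56.6 and 348 ± 9.15 TPM. Pmel, the closest relative of Gpnmb, was among the 7 that did not reach the filter, with Fabp2, Syngr3, Syngr4, Dmp1, Ibsp and Mepe. With FPKM, median-of-ratios scaling, quantile normalization or no filter Treml4 alone was called lower against PBS, and with only the 6 samples compared or a term for acinar transcripts neither was. The falls against PBS numbered 6 without PBS replicate 1 and 0 without PBS replicate 2, PBS replicate 3, MSC-EV replicate 1 or MSC-EV replicate 2. Without HEK-EV replicate 1, HEK-EV replicate 2 or MSC-EV replicate 3, Treml4 alone was called.

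Of 13 transcription factors tied to this program, 1 rose and 0 fell against PBS, where 1.86% of all genes were called higher and 3.25% lower. Bhlhe41 was at 3.58 ± 2.36, 3.12 ± 0.323 and 9.0 ± 2.27 TPM, a difference of 1.22 from PBS (SE 0.299, adjusted p = 0.0499, limma) and 1.26 from HEK-EV (adjusted p = 0.0427). The call against PBS sat at the threshold and was lost with a pseudocount of 0.1, no filter, only the 6 samples compared, the replicate block or a term for acinar transcripts, and no gene of the list rose in 7 of the 9 fits that leave out 1 sample, the exceptions being those without PBS replicate 1 or MSC-EV replicate 3. Spi1, which encodes PU.1, was at 526 ± 20.1, 526 ± 8.57 and 459 ± 9.31 TPM and did not pass against PBS (-0.20, adjusted p = 0.0548, limma). It was called lower against PBS with depth as a covariate and without PBS replicate 1. In the main fit Mitf, Tfec, Tfeb, Tfe3, Pparg, Nr1h3, Nr1h2, Rxra, Bhlhe40 and Egr2 did not pass either. The median of the list was -0.02, and it turned to 0.02 with FPKM and 0.04 with quantile normalization.

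**Figure D3:**
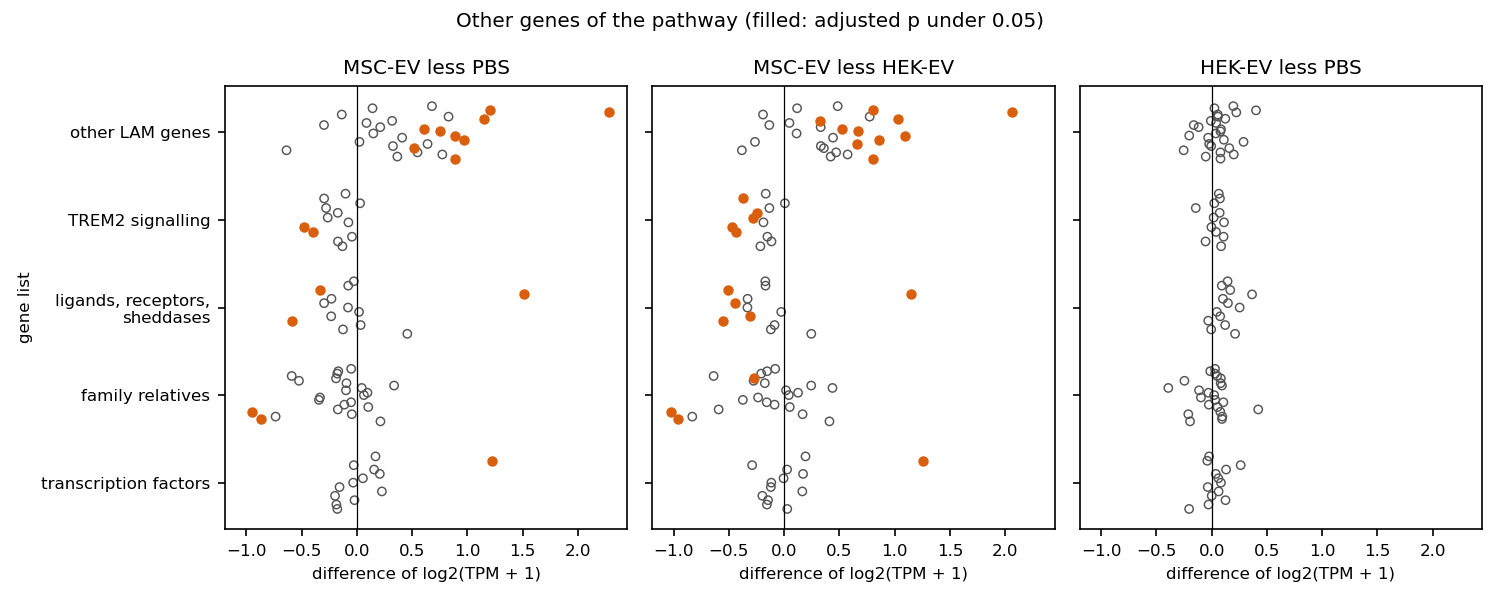
Difference of log2(TPM + 1) between groups (horizontal axis) for every tested gene of the 5 lists (rows, 1 point per gene), in MSC-EV less PBS, MSC-EV less HEK-EV and HEK-EV less PBS. Filled points have an adjusted p under 0.05, and they lie to the right for the other lipid-associated macrophage genes, with 9 and 10 calls, to the left for TREM2 signalling, with 2 and 5 calls, and nowhere in HEK-EV less PBS.

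Markers of the cells that the gate could hold are set beside these genes, and their counts of calls stand beside shares over all genes of 1.86% called higher and 3.25% lower against PBS, and 1.51% and 4.4% against HEK-EV. The 8 genes together summed to 3097 to 5454 TPM in the PBS samples, 3640 to 3801 TPM in the HEK-EV samples and 6260 to 8448 TPM in the MSC-EV samples. The 8 general macrophage markers summed to 5348 to 6619, 5600 to 6727 and 5685 to 7340 TPM, which overlap, and 0 of the 8 were called in any of the 3 contrasts of the main fit. Against PBS 1 of the 8 rose with depth as a covariate and 1 without PBS replicate 1. The median difference of the list was 0.10 in the main fit and 0.42 and 0.24 in those fits. The 7 Ly6C-high monocyte markers summed to 5634 to 11569 TPM in PBS, 7191 to 9139 TPM in HEK-EV and 3494 to 4266 TPM in MSC-EV, and 4 of the 7 fell against PBS and 3 against HEK-EV. None of the 7 was called against PBS with no filter, with a term for acinar transcripts, or without PBS replicate 2, PBS replicate 3, MSC-EV replicate 1 or MSC-EV replicate 2, and 1 was without HEK-EV replicate 2 and 2 without MSC-EV replicate 3, while their median difference, -1.35, lay between -1.58 and -1.11 when each sample was left out. The 6 Kupffer cell markers, of the liver's resident macrophages, summed to 2604 to 3130, 1775 to 3664 and 1460 to 2539 TPM, with 0 called. The 10 neutrophil markers summed to 3036 to 5617, 5035 to 6883 and 2971 to 3777 TPM, with 1 rising against PBS and 1 rising and 1 falling against HEK-EV. The 1 fall became 5 with only the 6 samples compared or without PBS replicate 1, and 6 with depth as a covariate. It became 0 with FPKM, no filter or other scalings, and without PBS replicate 2 or any 1 HEK-EV or MSC-EV sample. The part of these cell types in the differences of the 8 genes was not tested.

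Some of the 8 genes are also made by cells outside the gate, Spp1 and Cd9 by bile duct cells among them. Biliary and hepatocyte sums were highest in the MSC-EV samples and endothelial sums had their lowest value there. The 12 biliary markers summed to 15.0 to 16.2 TPM in PBS, 18.2 to 22.4 TPM in HEK-EV and 32.1 to 45.8 TPM in MSC-EV, none was at 0 in every sample, and of the 10 tested 8 rose against PBS and 7 against HEK-EV, where 1.86% and 1.51% of all genes were called higher. The 8 became 0 without PBS replicate 2 or PBS replicate 3, 2 without MSC-EV replicate 2, 4 without MSC-EV replicate 1 and 5 without MSC-EV replicate 3. The median difference of the list lay between 1.07 and 1.33 when each sample was left out. With a term for acinar transcripts the 8 became 2, and with only the 6 samples compared or depth as a covariate 4. They became 5 with FPKM and 1 with a filter at 5 TPM. The 7 became 0 or 1 without any 1 HEK-EV sample, 0 without MSC-EV replicate 1 or 2, and 4 without MSC-EV replicate 3. The 10 hepatocyte markers summed to 232 to 314, 164 to 344 and 424 to 576 TPM, with 1 called higher against PBS and 3 against HEK-EV. Endothelial markers, 6 in number, summed to 267 to 331, 181 to 386 and 113 to 225 TPM with none called. Dendritic cell markers (6) summed to 93.6 to 125, 78.3 to 109 and 126 to 164 TPM with none called in the main fit. Of 5 stellate cell markers, at 3.82 to 11.7, 5.44 to 8.54 and 6.68 to 18.6 TPM, none of the 3 tested was called in that fit. Against PBS 1 dendritic cell marker rose with depth as a covariate and without PBS replicate 1 or MSC-EV replicate 3. In the same contrast 2 stellate cell markers rose with depth as a covariate and 1 without PBS replicate 1. Lymphocyte markers, 6 with 3 tested, summed to 5.86 to 8.49, 6.32 to 13.4 and 7.99 to 11.0 TPM, and 1 rose against each other group. Without the 2 samples richest in acinar transcripts no gene at all was called against either group, these markers included. The part of any of these cells in the levels of the 8 genes was not tested.

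**Figure D4:**
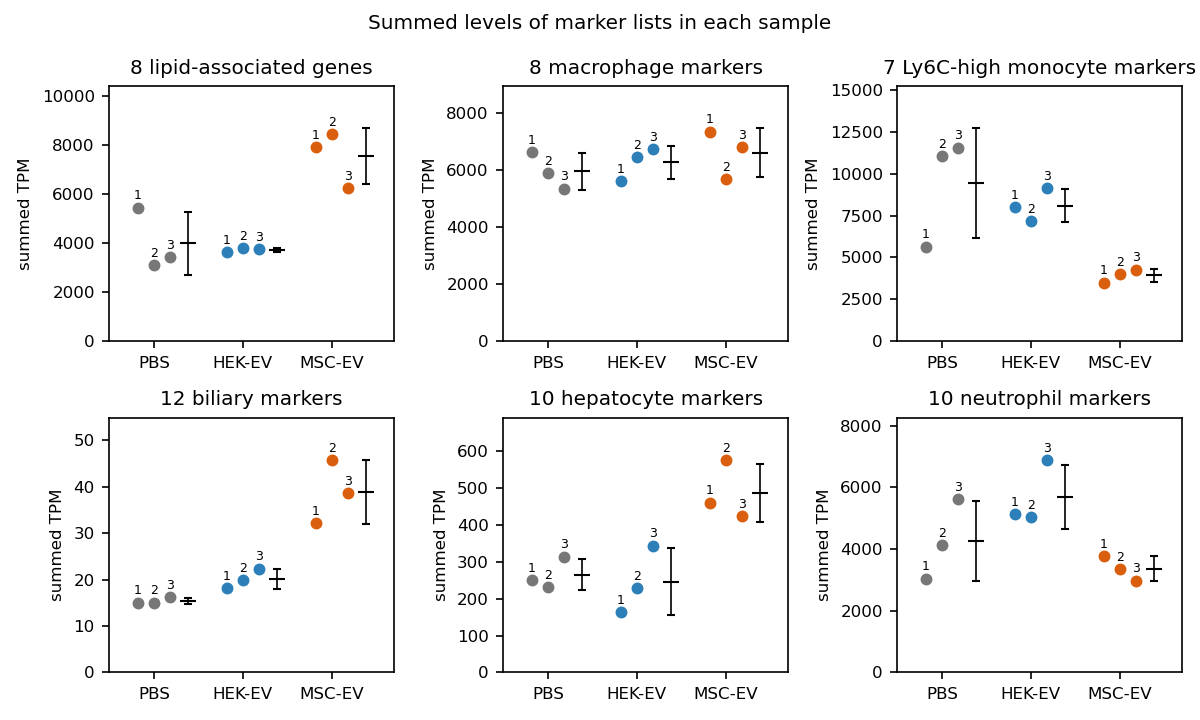
Summed TPM of the 8 lipid-associated genes and of 5 lists of cell type markers (vertical axes, from 0) in the 3 samples of each group (points, numbered by replicate), with the group mean and SD as a bar to the right. The sum of the 8 genes is highest in the MSC-EV samples, 6260 to 8448 TPM, the Ly6C-high monocyte sum is lowest there, 3494 to 4266 TPM, and the macrophage sums overlap between all groups.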

How the data were processed

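Bulk RNA sequencing of 9 samples was used, 3 per group, grouped by the treatment in their labels. Per the labels' protocols, Trizol was used for RNA and the TruSeq Stranded mRNA kit for libraries. HISAT2 2.1.0, StringTie and the build mm10 are named in the submitters' processing notes, without options. The deposited table of each sample lists genes with 3 measures. Coverage, deposited under that header and read here as the mean signal per base, served only to rank depth. FPKM, deposited by the authors as fragments per kilobase and 1000000 fragments, were an alternative. The main values were TPM, which as the authors deposited them total 1000000 per sample.

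Gene IDs were matched to the RefSeq gene table of GRCm38.p6 (45679 of 45777, 99.8%), since the name column was blank, and rows of a gene were summed. Coordinates are the files' own. The filter of 1 TPM in 3 samples kept 13820 genes. Differences of log2(TPM + 1), which understate the change of low genes, were fitted with limma 3.58.1 in R 4.3.3 (trend), all 9 samples in 1 fit without covariates, and p-values were two-sided and adjusted by Benjamini-Hochberg over all genes tested, with a threshold of 0.05. The fit was tested on simulated data of 13820 genes. Exact permutation with 3 samples per group cannot go below p = 0.1, so it was not used for single genes.

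The 8 members, the gene lists and the alternatives were chosen with earlier results of these data known. Of each list, genes past the threshold in any contrast (up to 10) and the 2 most abundant of those not past it are named. A gene that this rule names is not reported here. Adam10, Adam17, Mmp12, Pmel and the other untested relatives, and the factors listed after Spi1 fall outside that rule, having been picked once their values were known. Cell type markers are given as sums, and the 5 genes closest in profile to Gpnmb and to Trem2 leave out predicted genes. Promoters and their motifs come from RefSeq's table, and near-identical copies were searched among the annotated transcripts. Alternatives were the pseudocount, the filter, FPKM, other scalings, other sample sets, a block, depth as a covariate and each sample left out, and a term for acinar transcripts was added after the data were seen.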

Additional observations from a re-analysis of the deposited data

How the results depend on the processing

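Of 504 values for single members under the alternatives, 478 moved by less than the spread between replicates and 26 by more, the latter with depth as a covariate or without PBS replicate 1. The differences of HEK-EV from PBS, none of them called, crossed 0 among the alternatives for every member but Cd9. The median difference of the 8 genes from PBS went from 1.25 to 2.0 with depth as a covariate and from 1.02 to 1.60 when each sample was left out. Differences from PBS ranged over all alternatives from 1.49 to 2.79 for Gpnmb, 0.47 to 0.85 for Trem2 and 0.06 to 0.26 for Cd9.

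Counts of calls were far less stable, and the cause was not tested. The 706 genes called in MSC-EV against PBS became 361 with no filter, 77 with only the 6 samples compared, 1340 with depth as a covariate, 0 without the 2 samples richest in acinar transcripts, 21 with acinar transcripts as a term, and 5 to 1881 when each sample was left out. The 9 other lipid-associated genes became 1, 1, 16, 0, 0 and 0 to 18 in the same order. The 817 genes called against HEK-EV became 387 with no filter, 436 with FPKM, 512 with median-of-ratios scaling, 1446 with depth, 0 without the 2 acinar-rich samples, and 0 to 1384 when each sample was left out. The 10 other lipid-associated genes became 0 with no filter, 16 with only the 6 samples, 18 with depth, 0 without the 2 acinar-rich samples, 6 with the acinar term and 0 to 17. HEK-EV against PBS, with 0 calls, had 4 with no filter and 0 to 2 when each sample was left out, none of them a gene of that list.

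With the replicate block the counts were 404 and 448 genes, and 8 and 6 other lipid-associated genes, against PBS and HEK-EV. The 8 were 7 higher and 1 lower, Mmp12, and the fit without HEK-EV replicate 3 gave the same split. The block left 0 calls against PBS among the TREM2 signalling genes and the transcription factors. The labels state no pairing of samples of the same number. The correlation of their deviations from the group means lay between -0.50 and 0.058 over the 9 pairs, and for pairs of unlike number between -0.277 and 0.548. With 3 samples per group these values cannot decide if samples were paired. No depth in reads is known, so no interval for counting error was computed.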
